A study of Mus musculus with 17 samples.

Results

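The genes described here are 10 that mark mast cells and basophils and the contents of their granules: Cpa3, Cma1, Mcpt4, Mcpt8, Tph1, Hdc, Fcer1a, Ms4a2, Kit and Prg2. They were matched by gene name on 1-colour microarrays of a mouse leukaemia cell line that carried different forms of p65, also called RelA, which is one of the NF-kB proteins. Each of the 10 has 1 probe, out of 30342 genes named on the array. The design sets wild-type p65 beside a mutant described as non-cleavable and beside the fragments that result from cleavage. The cells are the Bcr-Abl+ mouse line DA1-3b, given with strain C3H eOuJ, and all were transfected with plasmids. The forms were D361E (4 arrays), 1-361 (3 arrays), 362-549 (3 arrays), 1-361+362-549 (3 arrays) and WT (4 arrays). 1-361 and 362-549 are the N-terminal and C-terminal parts of the protein, and 1-361+362-549 are cells given both. The protocol also names an empty plasmid, and such samples were not analysed here. The promoter of the plasmids, the amount of p65 protein and whether replicates were separate cultures are not given in the labels, so the p-values speak only of array-to-array spread, some of which may be technical.

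Mast cells and basophils store proteases, histamine and serotonin in cytoplasmic granules and release them when antigen crosslinks IgE bound to the high-affinity receptor FceRI. The receptor has an alpha chain (Fcer1a) that binds IgE, a beta chain (Ms4a2) that amplifies the signal and a gamma chain (Fcer1g) that carries it into the cell. Kit, the receptor for stem cell factor, is needed by tissue mast cells, and mature basophils carry little of it. GATA factors bind regulatory regions of many mast cell and basophil genes.

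A level is given throughout as log2 of the background-subtracted spot signal relative to the 75th percentile of its own array, and a difference as log2 of one group over another with its standard error (SE). Levels of different probes are not set against each other. Tests were made with limma over 15254 genes, with p-values adjusted by Benjamini-Hochberg over all of them and a gene called at an adjusted p under 0.05. These 10 genes were put together with the differences against WT already known. The adjusted p-values below therefore describe them and are no separate evidence that the genes belong together. The 4 comparisons with WT share the same WT arrays. In bulk RNA, fewer cells of a type and less RNA per cell cannot be told apart.

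The promoters of 4 of the genes are shown because 3 of them (Cpa3, Cma1 and Fcer1a) were lower in several of the groups below while Hdc was not. The sequences are from RefSeq on build GRCm38.p6, run from 250 bases before the transcription start to 50 bases after it, and are read 5′ to 3′ on the strand of the gene. Capitals mark GATA words, the letters GATA with A or T before them and A or G after them on either strand, so that a word on the opposite strand appears as its reverse complement. All 4 genes lie on the minus strand, the Cpa3 promoter at chr3:20242132-20242431, the Cma1 promoter at chr14:55944626-55944925, the Fcer1a promoter at chr1:173227180-173227479 and the Hdc promoter at chr2:126618629-126618928.
Cpa3: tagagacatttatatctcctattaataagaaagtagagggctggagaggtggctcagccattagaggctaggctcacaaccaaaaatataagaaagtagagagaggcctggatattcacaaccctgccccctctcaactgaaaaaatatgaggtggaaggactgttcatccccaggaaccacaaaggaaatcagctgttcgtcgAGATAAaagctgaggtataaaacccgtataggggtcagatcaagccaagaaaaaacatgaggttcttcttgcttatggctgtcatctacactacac
Cma1: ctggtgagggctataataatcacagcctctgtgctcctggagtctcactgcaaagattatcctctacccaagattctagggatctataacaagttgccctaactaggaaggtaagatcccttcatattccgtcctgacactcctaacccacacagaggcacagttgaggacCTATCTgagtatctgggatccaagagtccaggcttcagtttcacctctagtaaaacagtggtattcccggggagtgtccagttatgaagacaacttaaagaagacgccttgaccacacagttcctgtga
Fcer1a: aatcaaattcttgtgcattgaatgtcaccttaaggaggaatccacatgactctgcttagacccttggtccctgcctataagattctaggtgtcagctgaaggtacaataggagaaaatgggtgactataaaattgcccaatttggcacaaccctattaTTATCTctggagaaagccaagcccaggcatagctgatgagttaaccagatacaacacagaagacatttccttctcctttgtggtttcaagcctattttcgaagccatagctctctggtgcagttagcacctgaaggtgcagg
Hdc: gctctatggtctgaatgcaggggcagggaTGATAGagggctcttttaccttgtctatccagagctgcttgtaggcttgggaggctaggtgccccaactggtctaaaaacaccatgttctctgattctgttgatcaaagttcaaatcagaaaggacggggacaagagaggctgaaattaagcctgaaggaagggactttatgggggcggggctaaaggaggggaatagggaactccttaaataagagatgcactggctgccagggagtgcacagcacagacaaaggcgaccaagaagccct

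A GATA word stood 46 bases before the start in Cpa3, 79 in Cma1, 92 in Fcer1a and 221 in Hdc. Of the 10 genes 9 had a promoter sequence (Prg2 did not), and 7 of these 9 held at least 1 word. Counted by promoter, 7 of their 11 promoters held one. Mcpt4 had one 103 bases before the start, Tph1 one 236 bases before 1 of its 2 starts, and Ms4a2 had 3, while Mcpt8 and Kit had none. Such a word was held by 29.6% of all 32544 promoters. The word was thus present both in genes that were lower and in Hdc, and also in Ms4a2, which was not measurable here. The NF-kB consensus was found in none of the 11 promoters of these genes and in 8.49% of all promoters, and 11 are too few to read a difference from this. A match or its absence describes the letters of this window only.

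The proteases of the family are near relatives, so probes were compared with each other. The probes of Cma1 and Mcpt8, both on chromosome 14, are shown because capitals mark the longest run of bases that they share, 7 bases within 60.
Cma1: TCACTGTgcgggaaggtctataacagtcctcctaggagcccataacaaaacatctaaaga
Mcpt8: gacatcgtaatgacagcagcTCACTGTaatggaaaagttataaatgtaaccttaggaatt

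Over the 45 pairs of probes of the 10 genes, the best ungapped match covered 18 to 29 bases of 60, and the longest shared run was 4 to 9 bases. The exception outside the 10 genes was Mcpt-ps1, a mast cell protease pseudogene, whose probe shared a run of 27 bases with that of Mcpt4 (31 matching bases of 39 aligned). Signal of these 2 probes cannot be fully told apart. On build mm9 the probe of Cma1 lies on the minus strand of chromosome 14, from 56561491 to 56562550, and that of Mcpt8 from 56702300 to 56702674. Both stretches are longer than the probe, so that each probe crosses a splice junction. The probe of Mcpt4 lies on the same chromosome at 56678589 to 56678648, and that of Cpa3 on chromosome 3 at 20115674 to 20115733. The probe of Fcer1a lies on chromosome 1 at 175151438 to 175151497, that of Tph1 on chromosome 7 at 53902553 to 53902612, and that of Prg2 on chromosome 2 at 84822799 to 84822858.

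The 75th percentile of signal that sets the scale of an array ran from 636 to 1214 over the 17 arrays, and arrays within a group correlated at 0.966 to 0.995 across genes, which are not independent replicates. Rela itself held, at 4.62 to 4.88 with D361E, 4.73 to 4.82 with 1-361, 4.80 to 4.86 with 362-549, 4.79 to 4.94 with 1-361+362-549 and 4.68 to 4.85 with WT. Whether its probe reads the plasmid transcripts is not given in the sources used here, so it does not check the constructs. Each slide carried 2 to 4 of the arrays (6 slides in all), and each comparison below is also given with slide as a block where that ends a call. That block is a fixed one, which leaves 7 residual degrees of freedom against 12 without it. With slide as a random block instead (correlation within slides -0.052), all 32 differences of the tested genes against WT kept their sign and stayed called or not called. With a correlation this near 0 that fit is almost the one without a block, so it is no check on slide beside the fixed block.

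In cells with both fragments the granule proteases Cpa3, Cma1, Mcpt4 and Mcpt8, the serotonin enzyme Tph1 and the IgE-binding chain Fcer1a were below WT, and no call was made for histidine decarboxylase. Mcpt8 and Fcer1a have only bounds there, at least 1.85-fold and at least 3.14-fold lower when dim signals are raised to the lowest signal well above background. Both of these calls were lost with normexp background correction. Cma1, whose probe was well above background throughout, was 47.3-fold lower. With D361E, Cpa3 and Cma1 were lower and Prg2 was higher. With 1-361, Cpa3 and Fcer1a were lower and Mcpt4 was higher, and with 362-549 Cma1 was lower. Ms4a2 and Kit were not well above background on any of the 17 arrays, and were not tested.

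Counted by form, D361E against WT called 1 of the 8 tested genes higher (0.308% of all 15254 genes) and 2 lower (0.177%). With 1-361 it was 1 higher (0.4% of all genes) and 2 lower (0.315%), with 362-549 it was 0 higher (0.262%) and 1 lower (0.452%), and with both fragments 0 higher (1.99%) and 6 lower (3.14%). These counts describe genes chosen on the same comparisons, and nothing is read from them against the shares of all genes. The median difference of the 8 was -1.08, -0.33, -0.59 and -3.59 for D361E, 1-361, 362-549 and 1-361+362-549, beside 0.03, 0.04, 0.05 and 0.04 over all genes. With slide as a block the called counts were 0, 1, 0 and 6. The 6 called with both fragments kept their call with that block, at adjusted p of 1.96e-06 to 0.0371. The 75th percentile of array signal was 847 to 1214 with 1-361+362-549 and 773 to 1023 with WT.

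**Figure D1:**
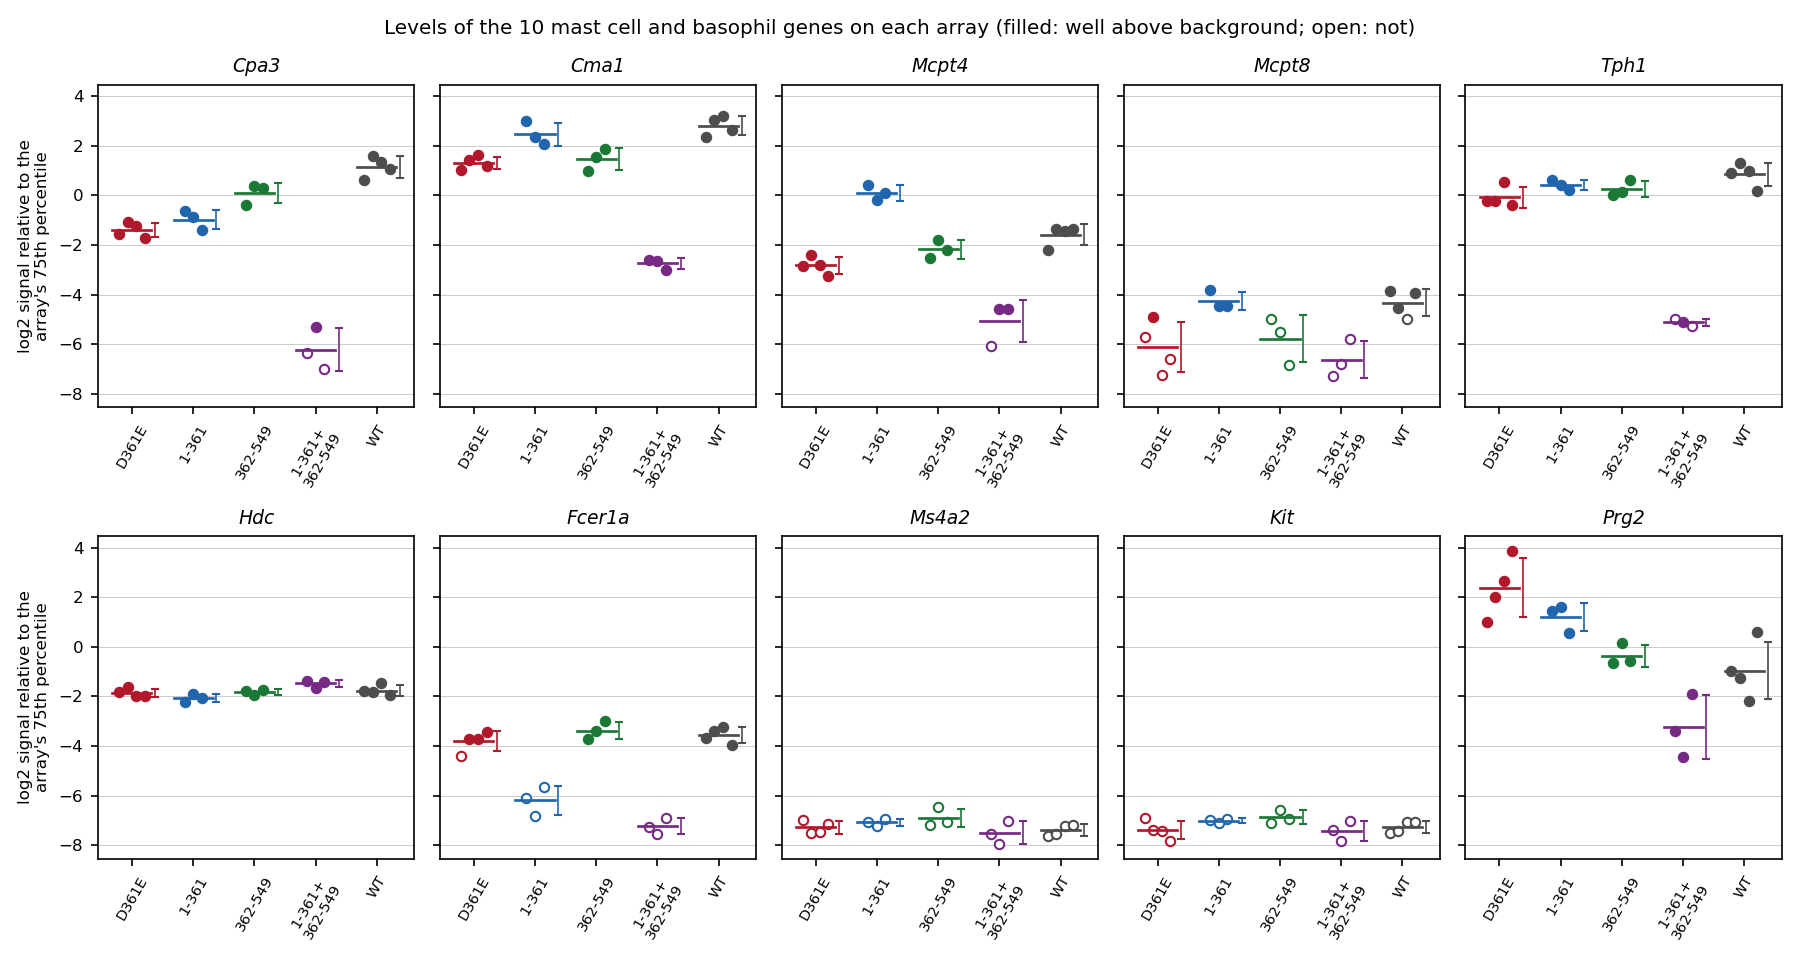
Each panel plots 1 gene, with the log2 level relative to the array's 75th percentile on the y axis and 1 point per array in D361E, 1-361, 362-549, 1-361+362-549 and WT cells. Horizontal lines are group means, vertical bars SD, and open points were not well above background. Cpa3, Cma1, Tph1 and Mcpt4 sit lowest with 1-361+362-549, Hdc lies between -2.23 and -1.36 on all arrays, and Ms4a2 and Kit reach no higher than -6.47 and -6.57.

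Cpa3 encodes the carboxypeptidase that mast cells store bound to proteoglycan in their granules. Its level was -1.57, -1.07, -1.21 and -1.71 on the D361E arrays and -0.64, -0.88 and -1.40 on the 1-361 arrays. It was -0.37, 0.38 and 0.30 with 362-549, -6.34, -5.31 and -7.02 with 1-361+362-549, and 0.60, 1.60, 1.35 and 1.05 with WT. Every array of the other 4 groups lay below every WT array, and the 1-361+362-549 arrays lay below all others, 1 of 3 of them well above background. Cpa3 was 5.83-fold lower with D361E (-2.54 ± 0.33, adjusted p = 0.000812) and 4.36-fold lower with 1-361 (-2.12 ± 0.35, 0.00628). With 362-549 the difference was -1.05 ± 0.35 and was not called (0.357). With both fragments it fell by 7.37 ± 0.35 on the log2 scale (2.48e-09), to -6.22 ± 0.86 (SD, n = 3) against 1.15 ± 0.43 (SD, n = 4) in WT. With slide as a block the D361E and 1-361 differences were -2.29 ± 0.43 and -1.90 ± 0.44 and lost the call (0.145 and 0.249), while within slides they were -2.31 to -2.13 and -2.74 to -1.48, and the 1-361 call was also lost with normexp background correction (0.104). The fall with both fragments was -7.08 ± 0.50 with that block (4.74e-05), -5.91 within the 1 slide that held both groups and -4.11 ± 0.41 with normexp (3.08e-05).

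Cma1 encodes a mast cell chymase, a serine protease of the granule. Its level was 1.05, 1.41, 1.62 and 1.17 with D361E, 2.99, 2.35 and 2.09 with 1-361, and 0.98, 1.55 and 1.89 with 362-549. It was -2.60, -2.64 and -2.99 with 1-361+362-549, and 2.37, 3.04, 3.23 and 2.64 with WT. The probe was well above background on all 17 arrays, and only the 1-361 arrays overlapped those of WT. Cma1 fell by 1.51 ± 0.24 with D361E (adjusted p = 0.0084) and by 1.35 ± 0.26 with 362-549 (0.0239). With 1-361 it differed by -0.35 ± 0.26 (0.807), and with both fragments it fell by 5.56 ± 0.26 (2.48e-09), which is 47.3-fold, or by 4.63 ± 0.33 with normexp (1.01e-06). With slide as a block the D361E difference was -1.45 ± 0.30 (0.235) and that of 362-549 -1.41 ± 0.28 (0.0919), while within slides they were -1.23 to -1.20 and -1.68 to -1.15. The 362-549 call was also lost without 362-549 replicate 1 or 2 or WT replicate 2 or 3 (0.0654 to 0.153), and both calls were lost with normexp background correction (0.172 with D361E, 0.423 with 362-549), as was that of 362-549 without the filter on dim probes (0.0604).

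Mcpt4, a chymase of connective tissue mast cells, was the protease that went the other way with 1-361. Its level was 0.44, -0.19 and 0.08 on the 1-361 arrays, -2.84, -2.41, -2.79 and -3.25 with D361E, and -2.54, -1.80 and -2.19 with 362-549. It was -6.06, -4.60 and -4.58 with 1-361+362-549, and -2.20, -1.33, -1.44 and -1.36 with WT. All 1-361 arrays were above, and all D361E and 1-361+362-549 arrays below, every WT array, whereas 362-549 overlapped WT. Mcpt4 rose by 1.69 ± 0.34 with 1-361 (3.23-fold, adjusted p = 0.0293) and fell by 3.50 ± 0.34 with both fragments (9.73e-06; 2 of 3 arrays well above background). With D361E it differed by -1.24 ± 0.32 (0.157, but called at 0.0394 without 1-361+362-549 replicate 1) and with 362-549 by -0.60 ± 0.34 (0.73). The D361E difference was also called with the replicate block described at the end (0.0259). The rise with 1-361 was 1.76 ± 0.36 with slide as a block (0.133) and 1.52 to 2.01 within slides. It lost its call without any 1 of the 1-361 or WT arrays (0.0541 to 0.21), without scaling (0.176), without the filter on dim probes (0.0722) and with normexp (0.475), and the fall with both fragments was -1.52 ± 0.36 with normexp (0.051).

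Mcpt8, a protease of mouse basophils, was dim. It was well above background on 1 of 4 arrays of D361E (-5.70, -4.92, -7.24 and -6.61) and on none of 362-549 (-5.00, -5.52 and -6.84) or of 1-361+362-549 (-7.28, -6.81 and -5.79). It was so on all 3 arrays of 1-361 (-3.83, -4.46 and -4.45) and on 3 of 4 of WT (-3.84, -4.54, -4.98 and -3.96). The 362-549 and 1-361+362-549 arrays lay below every WT array, and those of D361E and 1-361 overlapped WT. A bound is given for a probe not well above background on any array of a group. It sets the mean of the bright group against the mean, over the dim arrays, of a raised signal. That is the higher of the probe's own signal and the lowest signal well above background of any probe on the array. The bound carries no sampling error and changes with the treatment of background. Each fold given as at least thus holds only for signals taken in this way, and is no strict limit. Mcpt8 was at least 1.85-fold lower with both fragments than with WT (adjusted p = 0.0198). It was not called with D361E (-1.79 ± 0.50, 0.245), 1-361 (0.08 ± 0.54, 0.989) or 362-549 (-1.46 ± 0.54, 0.428). The fitted value for 362-549 rests on arrays not well above background. The call with both fragments was lost without 1-361+362-549 replicate 1 or 2 or WT replicate 1 or 4 (0.0543 to 0.122) and with normexp (-0.53 ± 0.49, 0.897).

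Tph1 and Hdc make the amines of the granule, serotonin and histamine. Tph1, tryptophan hydroxylase, was at -0.21, -0.21, 0.56 and -0.39 with D361E, 0.63, 0.42 and 0.21 with 1-361, and 0.03, 0.12 and 0.62 with 362-549. It was at -4.99, -5.10 and -5.29 with 1-361+362-549 (1 of 3 arrays well above background), and at 0.89, 1.32, 0.99 and 0.19 with WT. The 1-361+362-549 arrays stood apart from all others, and the other 3 groups overlapped WT. Tph1 fell by 5.97 ± 0.26 with both fragments (62.8-fold, adjusted p = 1.17e-09), and the difference was -6.13 ± 0.26 with slide as a block (1.96e-06) and -3.48 ± 0.40 with normexp (0.000109). With 2 of the 3 arrays of that group not well above background, the size of the fold depends on how background is treated. The differences with D361E, 1-361 and 362-549 were -0.91 ± 0.24, -0.43 ± 0.26 and -0.59 ± 0.26 and were not called (0.19, 0.75 and 0.527). That with D361E was called without WT replicate 4 (0.0388) and with the replicate block described at the end (0.0349).

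Hdc, histidine decarboxylase, was at -1.82, -1.64, -1.97 and -1.97 with D361E, -2.23, -1.91 and -2.05 with 1-361, and -1.78, -1.95 and -1.74 with 362-549. It was at -1.36, -1.64 and -1.42 with 1-361+362-549, and at -1.80, -1.82, -1.46 and -1.95 with WT. All 4 groups overlapped WT, and none of the differences was called. They were -0.09 ± 0.13 with D361E (adjusted p = 1), -0.31 ± 0.14 with 1-361 (0.645), -0.06 ± 0.14 with 362-549 (0.965) and 0.28 ± 0.14 with both fragments (0.317). The standard errors were small beside the falls of Tph1 and Cpa3 on the same arrays. In cells with both fragments Hdc was 1.51-fold above its level in 1-361 cells (0.59 ± 0.15, 0.0248), a call that was lost with slide as a block (0.134), with normexp (0.224), without the filter on dim probes (0.0757) and without 1-361+362-549 replicate 1 or 1-361 replicate 1 or 3 (0.0606 to 0.107).

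Fcer1a, the IgE-binding chain, separated the 2 groups given the N-terminal fragment from the others. It was at -6.09, -6.81 and -5.67 with 1-361 and at -7.25, -7.56 and -6.91 with 1-361+362-549, where no array was well above background. It was at -4.39, -3.70, -3.70 and -3.42 with D361E (3 of 4 well above background), -3.72, -3.39 and -3.01 with 362-549, and -3.68, -3.39, -3.23 and -3.97 with WT. Arrays of D361E and 362-549 overlapped those of WT, and all arrays of the groups with 1-361 lay below. Fcer1a was at least 2.31-fold lower with 1-361 (adjusted p = 0.000125) and at least 3.14-fold lower with both fragments (9.92e-07). Both kept the call with slide as a block (0.00689 and 0.000884) and without each array in turn. With normexp, which adds an offset of 50 to signals that averaged 77.7 in WT, both lost it (0.998 and 0.626). With D361E and 362-549 the differences were -0.24 ± 0.27 and 0.19 ± 0.29 and were not called (1 and 0.938).

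The other chains of the receptor differed from this. Ms4a2 was between -7.94 and -6.47 on all 17 arrays, not well above background on any. Fcer1g, the gamma chain, which other Fc receptors also use, was at 3.72, 3.57 and 3.49 with 1-361 and at -4.11, -4.38 and -3.37 with 1-361+362-549. It was at 1.12, 1.13, 1.13 and 1.17 with D361E, 0.33, 0.87 and 0.78 with 362-549, and 0.83, 1.06, 1.11 and 1.11 with WT. Thus with 1-361 alone the gamma chain was above WT while the alpha chain was below it, and with both fragments both were below. Fcer1g rose by 2.57 ± 0.20 with 1-361 (adjusted p = 3.27e-06) and fell by 4.98 ± 0.20 with both fragments (3.7e-10). Both calls held with slide as a block (0.000799 and 5.78e-06) and without each array in turn.

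**Figure D2:**
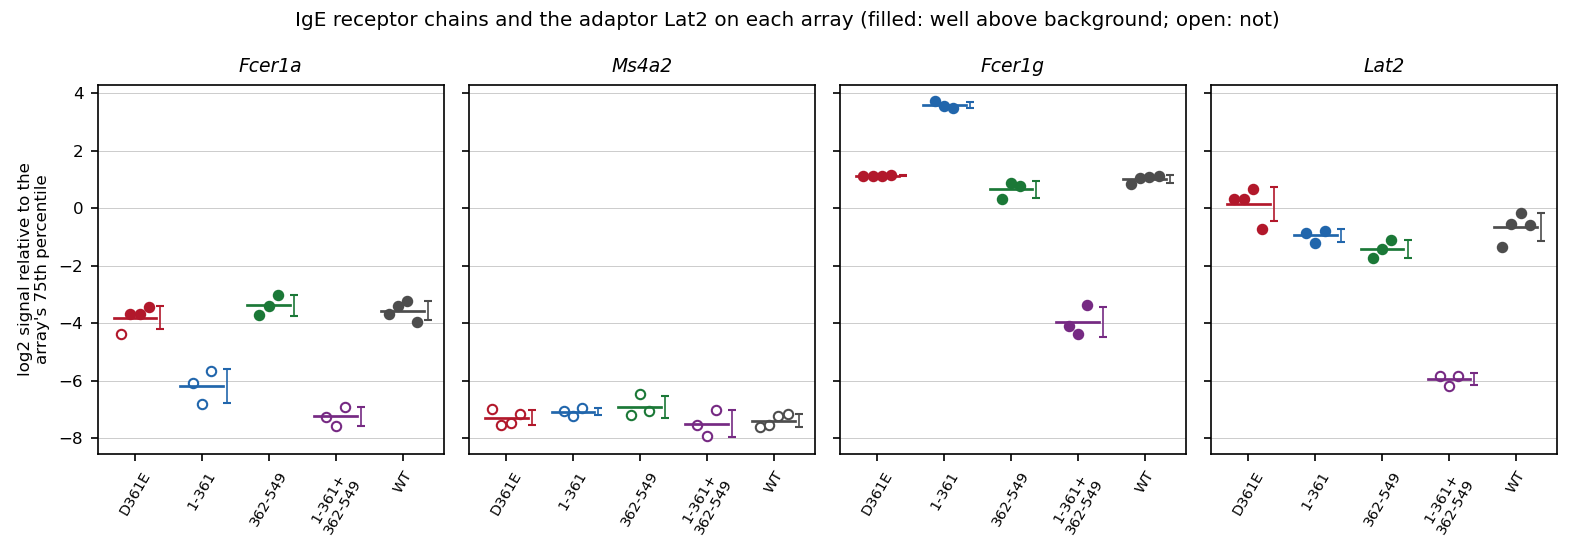
The log2 level relative to the array's 75th percentile is plotted on the y axis for the IgE receptor chains Fcer1a, Ms4a2 and Fcer1g and the adaptor Lat2, with 1 point per array in D361E, 1-361, 362-549, 1-361+362-549 and WT cells (lines, group means; bars, SD; open points, not well above background). With 1-361 Fcer1g is at 3.49 to 3.72 while Fcer1a is not above background, and with 1-361+362-549 Fcer1g and Lat2 are lowest, Fcer1a and Lat2 not being above background there.

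Kit, the stem cell factor receptor, was between -7.84 and -6.57 on all 17 arrays and not well above background on any. No fold is given for Kit or Ms4a2. In WT cells Cpa3, Cma1, Mcpt4, Tph1, Hdc, Fcer1a and Prg2 were well above background on all 4 arrays, and Mcpt8 on 3 of 4. Kit and Ms4a2 were so on none. Of the wider list of 16 granule proteases used below, 8 passed the filter in any group. The labels do not call the line a mast cell.

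Prg2 encodes major basic protein, the crystal protein of the eosinophil granule that basophils also hold. It was at 1.02, 2.02, 2.66 and 3.89 with D361E, 1.45, 1.62 and 0.56 with 1-361, and -0.66, 0.16 and -0.56 with 362-549. It was at -3.40, -4.44 and -1.88 with 1-361+362-549, and at -0.97, -1.24, -2.20 and 0.59 with WT. Replicates spread widely, by 1.20 (SD) with D361E and 1.16 with WT, and only the D361E group lay wholly above WT. In the order of the title number rounds described at the end, D361E rose from round 1 to round 4. WT fell from round 1 to round 3 and was highest in round 4. Only D361E and WT have an array of round 4. For 1-361, 362-549 and both fragments the difference against WT therefore also holds a difference in rounds. Prg2 was 10.2-fold higher with D361E (3.35 ± 0.66, adjusted p = 0.0348), while 1-361 (2.17 ± 0.71, 0.37), 362-549 (0.60 ± 0.71, 0.908) and both fragments (-2.29 ± 0.71, 0.084) were not called. The rise was 2.94 ± 0.90 with slide as a block (0.952) and 1.43 and 4.86 within the 2 slides that held both groups. It lost its call without any 1 of 10 of the 17 arrays (0.0512 to 0.141), namely D361E replicates 2 to 4, 1-361 replicates 1 and 2, 362-549 replicate 1, 1-361+362-549 replicate 1 and WT replicates 1 to 3, and also without scaling (0.0525) or without the filter on dim probes (0.0875). Without 1-361+362-549 replicate 3, the difference with both fragments was called (-2.97, 0.0255). That difference and the one with 1-361 were also called with the replicate block described at the end.

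**Figure D3:**
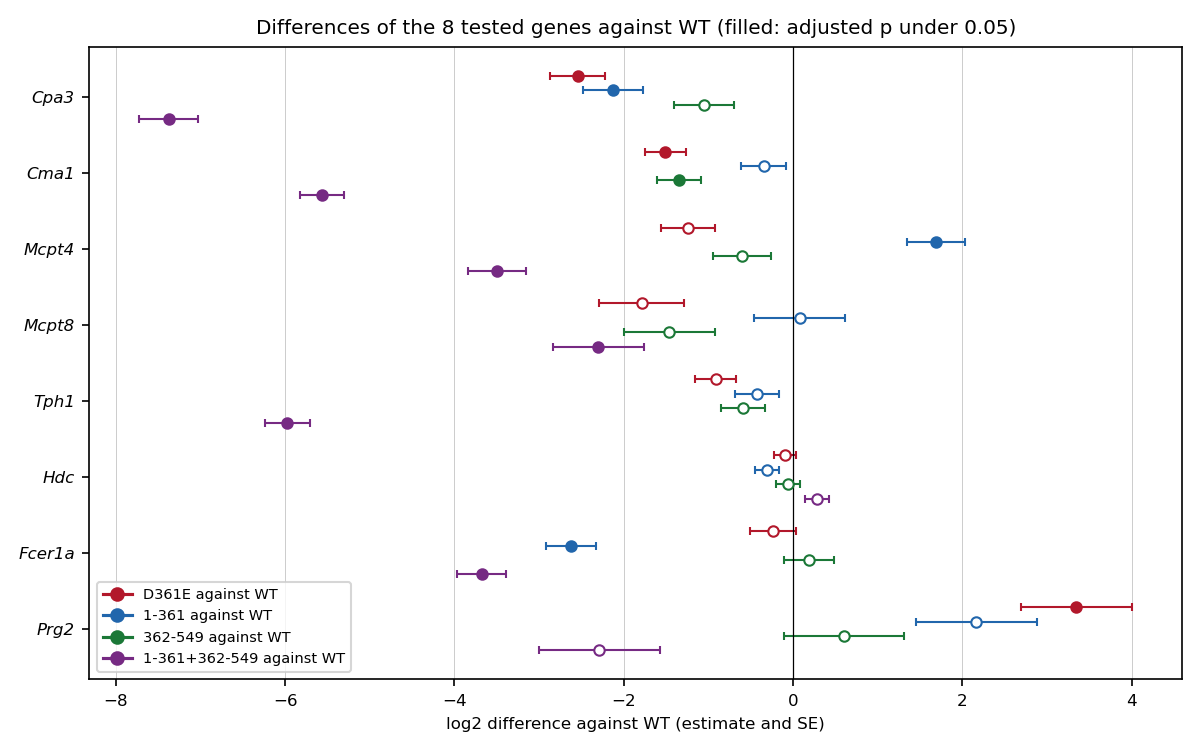
The x axis gives the log2 difference against WT (estimate, with bars for the SE) of the 8 tested genes for D361E, 1-361, 362-549 and 1-361+362-549, and filled points have an adjusted p under 0.05. With 1-361+362-549, 6 of 8 points are called, all to the left of 0, and Hdc and Prg2 are open. Fitted values of Fcer1a and Mcpt8 rest on arrays not well above background. With 1-361+362-549, Cpa3 and Tph1 were well above background on 1 of 3 arrays and Mcpt4 on 2 of 3. The sizes of these differences thus depend on how background is treated.

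**Figure D4:**
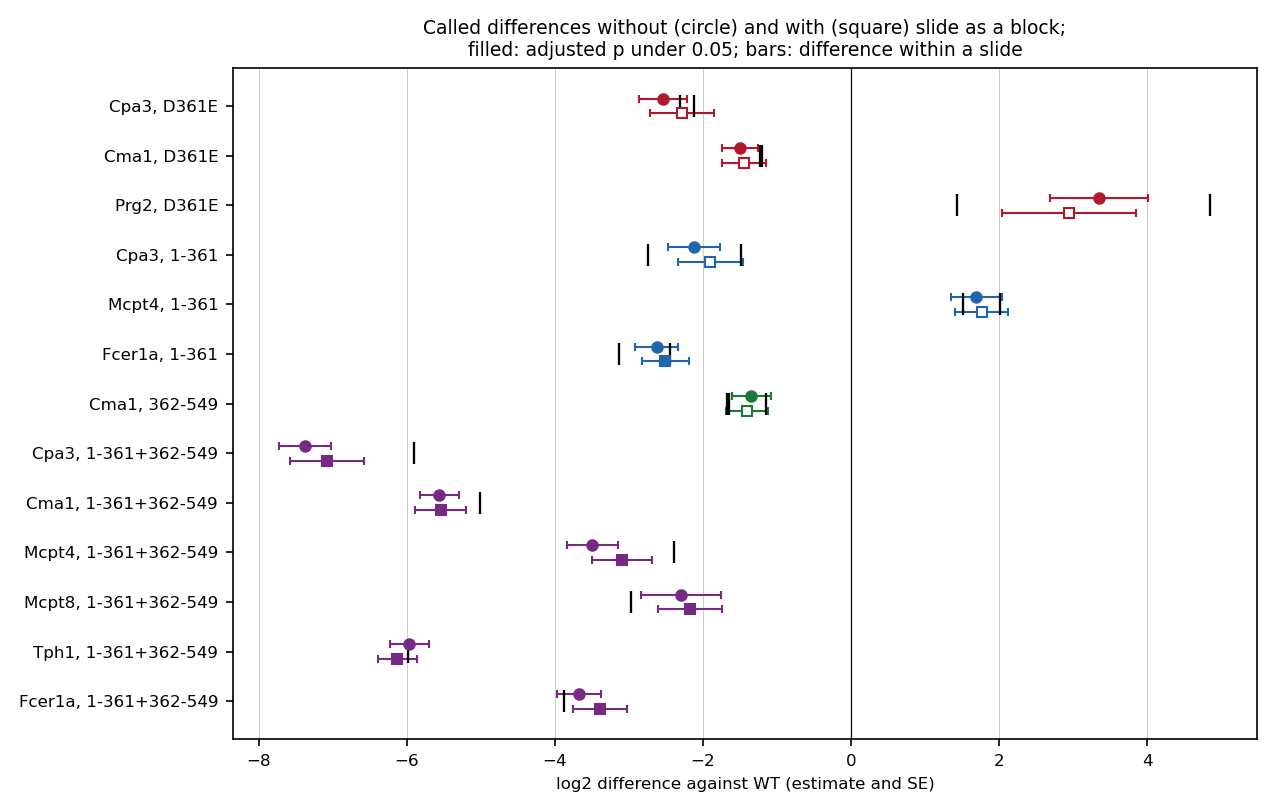
The x axis gives the log2 difference against WT (estimate and SE) for each called gene and form, with group alone (circles) and with slide as a block (squares), filled where the adjusted p is under 0.05, and black bars give the difference within each slide that held both groups. The 6 falls with 1-361+362-549 and the fall of Fcer1a with 1-361 stay filled with the block, while the other 6 squares are open.

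The forms also differed from each other. 1-361 against D361E called 1 gene higher and 1 lower (0.531% and 0.492% of all genes). Mcpt4 was 7.65-fold higher with 1-361 than with D361E (2.94 ± 0.34, adjusted p = 0.00028), and Fcer1a was at least 1.96-fold lower (0.000454). 1-361 against 362-549 called 1 higher and 1 lower as well (0.4% and 0.229% of all genes), with Mcpt4 4.89-fold higher (2.29 ± 0.37, 0.00641) and Fcer1a at least 2.63-fold lower (0.000189). All 4 of these calls held with slide as a block (0.00641 to 0.0473). With normexp those of Fcer1a were lost (1 in both), as was that of Mcpt4 against 362-549 (0.123). 362-549 against D361E called 0 of the 8 higher or lower with limma (0.413% and 0.872% of all genes), with unadjusted p under 0.05 for Cpa3 (0.000708, a difference of 1.49) and Prg2 (0.00159, a difference of -2.75). Cpa3 was called there without 1-361+362-549 replicate 2 or 3 (0.0165 and 0.0225), and Prg2 without D361E replicate 1 (0.0443).

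Cells with both fragments were also set against each of the other forms. Against 362-549, 0 were higher and 6 lower (5.66% and 8.92% of all genes), and Cma1 was 18.6-fold lower (-4.22 ± 0.28, adjusted p = 1.62e-07). Cpa3 differed by -6.33 ± 0.38 (3.82e-08) and Tph1 by -5.38 ± 0.28 (1.08e-08), each well above background on 1 of 3 arrays with both fragments, and by -3.13 (0.000557) and -2.95 (0.000711) with normexp. Against 1-361, 1 was higher and 7 were lower (4.66% and 6.49% of all genes), with Mcpt4 36.5-fold lower (-5.19 ± 0.37, 2.78e-07; -2.84 with normexp) and Prg2 21.9-fold lower (-4.45 ± 0.76, 0.00187). The Prg2 difference was -3.85 without 1-361+362-549 replicate 2 and -5.13 without its replicate 3. Fcer1a is among those 7 but was not well above background in either group, so no fold is given. Its call was lost without any 1 of 9 of the 17 arrays (0.0567 to 0.194). Mcpt8 is also among the 7. It passed the filter only through the 1-361 group, so a lower level against that group was partly fixed by the filter. Its call was lost without 1-361+362-549 replicate 1 or 2 or 1-361 replicate 1 (0.0708 to 0.0896). Against D361E, 0 were higher and 6 lower (4.31% and 5.38% of all genes), and Prg2 was 49.7-fold lower (-5.64 ± 0.71, 8.37e-05). That difference was -5.04 without 1-361+362-549 replicate 2 and -6.32 without its replicate 3. Of the calls against 1-361, those of Hdc and Fcer1a were lost with slide as a block (0.134 and 0.178), and against 362-549 that of Prg2 (0.239).

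Other genes of granule content, receptor signalling and lineage were counted on 9 lists. Of their 76 measured genes, 2 were higher and 2 lower with D361E than with WT, 2 higher and 2 lower with 1-361, 0 and 3 with 362-549, and 1 and 26 with both fragments. Over all genes 0.308% were higher and 0.177% lower with D361E, 0.4% and 0.315% with 1-361, 0.262% and 0.452% with 362-549, and 1.99% and 3.14% with both fragments. The lists hold the genes above and were made with earlier results of these data known, so nothing is read from their counts against these shares. Of 8 measured granule proteases of 16 listed, 5 were lower with both fragments, with a median difference of -2.90, beside 0.04 over all genes. With D361E 2 were lower, with 1-361 1 was higher and 1 lower, and with 362-549 1 was lower. The further member was Gzmb, granzyme B, which fell by 6.64 ± 0.46 with both fragments (adjusted p = 2.08e-07). Its level was -2.89, -2.66 and -2.69 there, against 2.69, 3.99, 4.74 and 4.13 with WT, so that the groups lay far apart.

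Of 9 measured genes of amine synthesis and storage, 2 fell with both fragments, Tph1 and the serotonin transporter Slc6a4 (-2.25 ± 0.24, adjusted p = 2.45e-05), and 0 were called with the other forms. The median was -0.21 with both fragments. Of 17 genes of the IgE receptor and its signalling, 5 fell with both fragments (median -0.46). Lat2, an adaptor that FceRI signalling phosphorylates, was at least 23.6-fold lower (2.44e-08), with -5.83, -6.18 and -5.82 against -1.34, -0.54, -0.18 and -0.58 with WT. Its relative Lat fell by 0.97 ± 0.20 (0.00893), a call lost with slide as a block (0.22). The 5th gene was the kinase Fyn, named because the count is small, at -0.84 ± 0.20 (0.0198), a call lost with slide as a block (0.491). With 1-361 Fcer1g was higher and Fcer1a lower, and 0 were called with D361E or 362-549.

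Of 9 measured genes for lineage factors, among them Gata1, Gata2, Mitf and Tal1, limma called 0 with any form. Differences with both fragments ran from -0.81 to -0.21 (smallest adjusted p = 0.0517), with an unadjusted p under 0.05 for 5 of 9. The counts at that unadjusted level were 2 with D361E, 1 with 1-361 and 2 with 362-549. Gata2, a factor needed for mast cell and basophil development, averaged 4.97 ± 0.20 (SD, n = 3) with both fragments and 5.49 ± 0.20 (n = 4) with WT, a difference of -0.53 ± 0.17 (0.0999). Mitf, which drives mast cell genes with Gata2, differed by -0.21 ± 0.23 (0.677).

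Of 5 basophil surface genes, 3 were lower with both fragments (median -1.06) and 0 were called with the other forms. Cd200r3, an activating receptor of basophils and mast cells, was at least 25.4-fold lower (adjusted p = 9.5e-09). Csf2rb and Csf2rb2, the beta chains of the IL-3 receptor family, fell by 1.17 ± 0.15 (0.000105) and 1.06 ± 0.15 (0.000425), and the probes of these near-identical genes may share signal. Of 4 eosinophil granule and receptor genes, Prg2 was higher with D361E and Epx, eosinophil peroxidase, was at least 2.46-fold lower with both fragments (0.00531). Epx was at -2.90, -2.04, -1.47 and -0.90 with D361E, -1.81, -2.07 and -2.64 with 1-361, and -2.78, -2.27 and -2.18 with 362-549. With WT it was at -3.69, -4.02, -4.30 and -3.45. Arrays of each of these forms thus lay above those of WT, but Epx was called with none of them (0.107, 0.321 and 0.412).

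Of 7 genes of lipid mediator synthesis, 1 was higher and 3 were lower with both fragments (median -0.82). Alox5, the 5-lipoxygenase that starts leukotriene synthesis, fell by 2.31 ± 0.28 (adjusted p = 8.12e-05), and the cyclooxygenase Ptgs1 fell by 1.50 ± 0.19 (0.000132). Thromboxane synthase Tbxas1 fell by 0.83 ± 0.19 (0.0169), and the phospholipase Pla2g4a, which releases arachidonic acid, rose by 0.77 ± 0.18 (0.0209). The calls of Tbxas1 and Pla2g4a were lost with slide as a block (0.224 and 0.251).

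Of 7 cytokine genes, 5 were lower with both fragments (median -2.70), 2 were lower with 362-549 and 1 was higher with D361E. Il13, a type 2 cytokine of mast cells and basophils, was at least 7.53-fold lower with 362-549 (adjusted p = 0.000146) and at least 11.2-fold lower with both fragments (1.3e-05). The chemokine Ccl3 was higher with D361E (2.42 ± 0.25, 9.99e-05; 3 of 4 WT arrays well above background) and at least 2.06-fold lower with both fragments (1.46e-05). Ccl4 and oncostatin M (Osm) fell by 3.09 ± 0.39 and 2.52 ± 0.29 with both fragments (0.000115 and 5.75e-05). The other calls on this list, named because the counts are small, were Il4, at least 8.11-fold lower with both fragments (0.00214; 0.0277 with slide as a block), and Il6, which fell by 1.62 ± 0.30 with 362-549 (0.0137). The Il6 call was lost with slide as a block (0.0656) and without 362-549 replicate 1 or 2 or WT replicate 1 or 2 (0.0505 to 0.112). Of 10 genes of granule exocytosis, 2 fell with both fragments (median -0.21) and 0 were called with the others. They were Unc13d, a priming factor (-0.74 ± 0.14, 0.00355), and the small GTPase Rab27a (-1.30 ± 0.32, 0.0252), and both calls were lost with slide as a block (0.0892 and 0.364). Of the 21 genes named here that were called with both fragments and are not among the 10, 15 kept the call with slide as a block and 16 without each array in turn. Lat, Fyn, Tbxas1, Pla2g4a and Rab27a lost it without 1-361+362-549 replicate 1 or 2 (0.0543 to 0.121). Rab27a also lost it without replicate 3 of that group or WT replicate 3 or 4, Pla2g4a without WT replicate 1 or 3, Tbxas1 without WT replicate 2, and Fyn without WT replicate 2 or 4 (0.0532 to 0.0743).

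For each tested gene whose group means spanned over 1 log2 unit, the 3 genes with the closest levels over the 17 arrays were listed. Likeness is the root mean square difference after each gene was centred on its own mean, so a smaller value means a closer pattern. Cma1 and Tph1 were closest to each other (0.49), and both lay close to Cpa3 (0.90 for Cma1 and 0.81 for Tph1). Tph1 also lay near Cd200r3 (0.65) and Bcl2 (0.73), and Cma1 near Tnni1 (0.68) and Ccr7 (0.81). Mcpt4 lay closest to Mcpt-ps1 (0.57), with which its probe shares sequence, then to Dmwd (0.81) and Dmpk (0.90). Fcer1a lay closest to Nupr1 (0.52), which was lower in both groups given 1-361, at -3.28 with 1-361 and -3.34 with 1-361+362-549 against -0.75 with WT. Prg2 lay closest to Pglyrp1 (0.95), Mirt2 (0.97) and Itgax (1.01), and Mcpt8 to Cacna1g (0.73). The arrays share their groups, so these values describe likeness and nothing more.

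Markers of other cell types were read on the same arrays, as log2 of the summed signal of each list. Such a sum follows the brightest probes of its list, so it need not describe the other genes. The mast cell and basophil list, made of the 10 genes, summed to -0.63 to -0.17 with 1-361+362-549, against 3.28 to 3.91 with WT. These genes were chosen with their differences against WT known, so this fall only restates them and is no reading of cell type. Within the list Cma1 averaged -2.75 with both fragments and 2.82 with WT, and Hdc -1.47 and -1.76. The megakaryocyte list summed to 6.78 to 7.52 with 1-361+362-549 and 6.29 to 6.65 with 1-361, against 5.28 to 5.69 with WT, with 4 of 5 genes well above background in every group. Its genes did not move together. With both fragments the means of Pf4 (6.88 against 4.68 with WT) and Ppbp (3.035 against 1.58) were higher. Itga2b was lower there (3.42 against 3.82) and Gp9 was level (1.08 against 1.06). With 1-361 Pf4, Ppbp and Itga2b were at 5.85, 3.49 and 4.16, and Gp9 was at 0.79. The macrophage list summed to 0.03 to 1.38 with 1-361+362-549 (2 of 5 genes well above background on all arrays) and 1.01 to 2.40 with WT (4 of 5). The T cell list lay at 1.31 to 2.39 with 1-361+362-549 and 2.00 to 2.56 with WT. The B cell list lay at 1.18 to 1.39 with 1-361+362-549 and 0.48 to 0.91 with WT, with 1 of 5 genes well above background in each group. The neutrophil list lay at -1.57 to -0.35 with 1-361+362-549 and -0.97 to -0.28 with WT. The erythroid list lay at 4.09 to 5.50 with D361E, 4.88 to 5.06 with 1-361, 4.82 to 5.91 with 362-549, 3.80 to 4.44 with 1-361+362-549 and 2.90 to 4.18 with WT, so that 1-361 and 362-549 lay wholly above WT. The eosinophil list, which holds Prg2, lay at 1.13 to 3.96 with D361E, 0.73 to 1.75 with 1-361, -0.33 to 0.43 with 362-549, -4.03 to -1.75 with 1-361+362-549 and -1.80 to 0.70 with WT. The part of these other genes in the differences above was not tested.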

How the data were processed

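RNA of 17 samples was hybridised to 1-colour Agilent arrays. Deposited values are spot intensity, linear and not scaled between arrays. Agilent Feature Extraction 10.7.3.1, per the file headers, produced them and subtracted background, and probe coordinates are on mm9. The matrix of values deposited for the series equals the processed signal (largest relative difference 0). From the deposited intensity values, log2 of the processed signal minus the 75th percentile of each array was computed here. Control spots (leaving 43020 of 44397) and outlier spots were left out, a probe stayed if 1 group or more had it well above background on all its arrays (19769 of 39429), and the brightest probe stood for a gene. The 10 genes of interest have 1 probe each, none of it marked as an outlier or saturated. Symbols came from RefSeq for 27508 probes.

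Groups came from the source names. Differences were fitted with limma 3.58.1 (lmFit and eBayes, R 4.3.3) in 1 model over 5 groups, with 10 contrasts and Benjamini-Hochberg adjustment over 15254 genes. The code was run on simulated data with independent noise on each array. Those data held no slide or round structure, so they do not show how the fit behaves with it. The members and the 9 gene lists were chosen with earlier results of these data known. Beyond the 10 genes and Rela, the rule names up to 4 called genes per list with the smallest adjusted p and the 3 nearest genes per member. Fyn, Il4, Il6, Gata2 and Mitf fall outside it and were chosen after their values were seen. Alternatives were quantile, no scaling, normexp (offset 50), other filters and probe rules, slide as a block, the round of title numbers as a replicate block, and leaving out each array. The number of arrays limits the precision.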

Additional observations from a re-analysis of the deposited data

Results flagged for a closer look

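The level of Mcpt4 on WT replicate 1 stood apart from the other WT arrays. It was -2.20, against -1.44 to -1.33 on the other 3, and its gap to the nearest of them was 0.882 of the whole range of the group. This is above the limit for 4 samples at which chance marks about 1 group in 20, and 20 groups of 4 were examined (10 genes in D361E and in WT). Without that array the difference of Mcpt4 against WT was 1.49 with 1-361 (limma adjusted p = 0.11, against 0.0293 with all arrays).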

How the results depend on the processing

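Of the counts of the 8 tested genes called against WT, that of D361E (3) was 0 with slide as a fixed block, and that of 1-361 (3) was 1 with that block and 0 with normexp correction or when only probes well above background on all 17 arrays were kept. That of 362-549 (1) was 0 with the slide block, with normexp and without the filter on dim probes. That of 1-361+362-549 (6) was 3 with normexp and 1 with the all-arrays filter, and that of the other 6 contrasts together (24) was 13 and 7. The all-arrays filter leaves 3 of the 8 genes to be tested, and normexp with its offset of 50 shrinks differences of dim probes by construction; the cause of the other shifts was not tested. Leaving out each array in turn gave 2 to 4 called genes with D361E, 2 to 3 with 1-361, 0 to 1 with 362-549, 5 to 7 with 1-361+362-549 and 20 to 26 over the other contrasts. Small differences that were not called changed sign. Mcpt8 with 1-361 went to -0.14 with quantile normalization, -0.15 without scaling, -0.35 with normexp, -0.048 with the slide block, -0.13 without 1-361 replicate 1 and -0.14 without WT replicate 3, in a range of -0.14 to 0.24 over arrays left out. Without WT replicate 3, Hdc was at 0.0053 with D361E (range -0.16 to 0.0053) and at 0.036 with 362-549 (range -0.13 to 0.036), and Fcer1a was at 0.045 with D361E with the slide block and at -0.22 and -0.21 with 362-549 without scaling and with normexp. Over all genes, 74, 109, 109 and 783 were called with D361E, 1-361, 362-549 and 1-361+362-549. These were 24, 39, 65 and 242 with the slide block, 12, 31, 28 and 199 with normexp, and 34, 61, 51 and 592 with the all-arrays filter. They were 50, 86, 146 and 432 without scaling, 45, 93, 97 and 552 without the filter on dim probes, and 248, 206, 194 and 4688 with the replicate block, and 1253 with 1-361+362-549 without its replicate 3 (446 and 480 without replicates 2 and 1). For 1-361+362-549 against D361E, 1-361 and 362-549 the counts were 1478, 1701 and 2223, with 44.5%, 41.8% and 38.8% higher. Without scaling they were 2603, 2110 and 5461, with 86.2%, 86.3% and 94.2% higher, as the median of all genes moved to 0.41, 0.39 and 0.58. Leaving out each array gave 873 to 2763, 584 to 3893 and 876 to 4035. Settings for single genes in contrasts without WT, and for the named list genes, were chosen after seeing the data. Without scaling the median of all genes shifted to -0.19, -0.19, -0.36 and 0.23 for D361E, 1-361, 362-549 and 1-361+362-549, and 42.0%, 44.2%, 21.2% and 44.4% of called genes were higher, beside 63.5%, 56.0%, 36.7% and 38.8%. The round of the leading title numbers was fitted as a replicate block, although the labels do not say that it pairs samples. Arrays of 1 round correlated at -0.18 to 0.73 in their deviations from group means (median 0.38 over 31 pairs), and 14 of 17 correlated best with one of their own round. For arrays of different rounds the correlations ran from -0.70 to 0.67 (median -0.135 over 84 pairs). All these pairs were of arrays from different groups. With the replicate block 5 genes were called with D361E, 4 with 1-361, 1 with 362-549 and 7 with 1-361+362-549. The added calls were Mcpt4 and Tph1 with D361E (-1.24, adjusted p = 0.0259, and -0.91, 0.0349) and Prg2 with 1-361 (2.67, 0.0385) and with both fragments (-1.78, 0.0317).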
